A study of Rattus norvegicus with 4 samples.

Results

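Aquaporin 1 (Aqp1) is described here in RNA sequencing libraries of rat tendon stem and progenitor cells (TSPCs), cultured cells that can give rise to tendon, with and without U0126, a small molecule that blocks the MEK kinases and so keeps ERK from being phosphorylated. The gene is 1 of 32623 in the deposited table. It was picked there by its name, as a very abundant transcript that is lower with U0126. Its own levels are therefore given as a description with no test. The 4 libraries formed 2 groups of 2. The controls were TSPCs given DMSO, the solvent, and the other group was TSPCs given U0126. The labels name no strain, age, passage, dose or exposure time, and they number the libraries as biological replicates without naming the animal or culture of each. The p-values below therefore measure only the spread between these libraries.

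Aquaporin 1 is a membrane channel that lets water cross the plasma membrane along an osmotic gradient. It assembles as a tetramer in which each subunit has a pore of its own. It is best known from red blood cells, the kidney proximal tubule, the choroid plexus and the endothelium of small vessels, and it has also been described in cartilage cells.

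Total counts ran from 36888913 to 42785190 per library, and mitochondrially encoded genes took 2.98% to 3.48% of them in the controls and 4.82% to 5.64% with U0126. Of 14023 genes tested with edgeR's quasi-likelihood test, 8.41% were called higher and 11.5% lower with U0126 at a Benjamini-Hochberg adjusted p under 0.05, or 19.9% in either direction. Counts of called genes in the lists below are read against those shares. Collagen type I alpha 1, the main tendon collagen chain, was abundant in all 4 libraries (22420 ± 1905 CPM in the controls and 22235 ± 2416 with U0126, SD, n = 2), while the mature tendon marker Tnmd had at most 5 counts in a library.

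The gene lies on the plus strand of chromosome 4, from 85551502 to 85569360 in the deposited coordinates (genome build rn6 per the submitters' processing notes), under the identifier ENSRNOG00000011648. The table held 1 row of that name, and 0 other genes of the table overlapped it. RefSeq gives the 250 bases before its annotated start in the later build GRCr8 (chr4:85812534-85812783, plus strand). They are shown because the levels of some ETS and KLF factor genes are described below. Capitals mark matches to the TATA box, the ETS core and the KLF core:
Aqp1: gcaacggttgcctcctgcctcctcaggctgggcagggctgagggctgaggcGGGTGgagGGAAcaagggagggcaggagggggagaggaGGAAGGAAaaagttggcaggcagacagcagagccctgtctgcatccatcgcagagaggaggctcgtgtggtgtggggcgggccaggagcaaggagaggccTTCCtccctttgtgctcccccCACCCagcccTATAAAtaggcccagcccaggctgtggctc

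On both strands, TATAAA matched 1 time, at position -30 from the annotated start, and 12.9% of the 33469 rat promoters of the same length held it. The ETS core GGAA matched 4 times, at positions -191, -161, -157 and -61, in a set of promoters of which 93.2% held it. The KLF core CACCC matched 2 times, at -199 and -40, against 49.2% of promoters. The AP-1 site TGANTCA (held by 6.34% of promoters), the hypoxia response core ACGTG (16.6%) and the SRF CArG box (1.5%) had no match in these letters. The matches to the different motifs did not overlap each other. A match describes letters only, and binding was not measured. Of the KLF factor genes described below, Klf2 did not pass the test with all 4 libraries and Klf1 was not tested.

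Aqp1 was read 132618 times in control replicate 1 and 148597 times in control replicate 2. With U0126 it was read 32855 times in replicate 1 and 36034 times in replicate 2. Both U0126 libraries were below both controls, and the groups did not overlap in any of the deposited units. In TPM, which scales a library to one fixed total and accounts for gene length, the controls were at 2245 and 2379 and the U0126 libraries at 565 and 657. In deposited FPKM, which scales fragments by gene length and library size, they were at 1264 and 1289, and at 315 and 362. In CPM, counts scaled to library size with the TMM correction, the level was 3379 ± 49.4 in the controls and 931 ± 91.3 with U0126 (SD, n = 2). That is a 3.63-fold lower level, or -1.86 on the log2 scale. Each U0126 library set against each control gave a level between 3.36-fold and 3.94-fold lower. In bulk RNA, fewer cells that express the gene and less transcript per cell cannot be told apart.

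**Figure D1:**
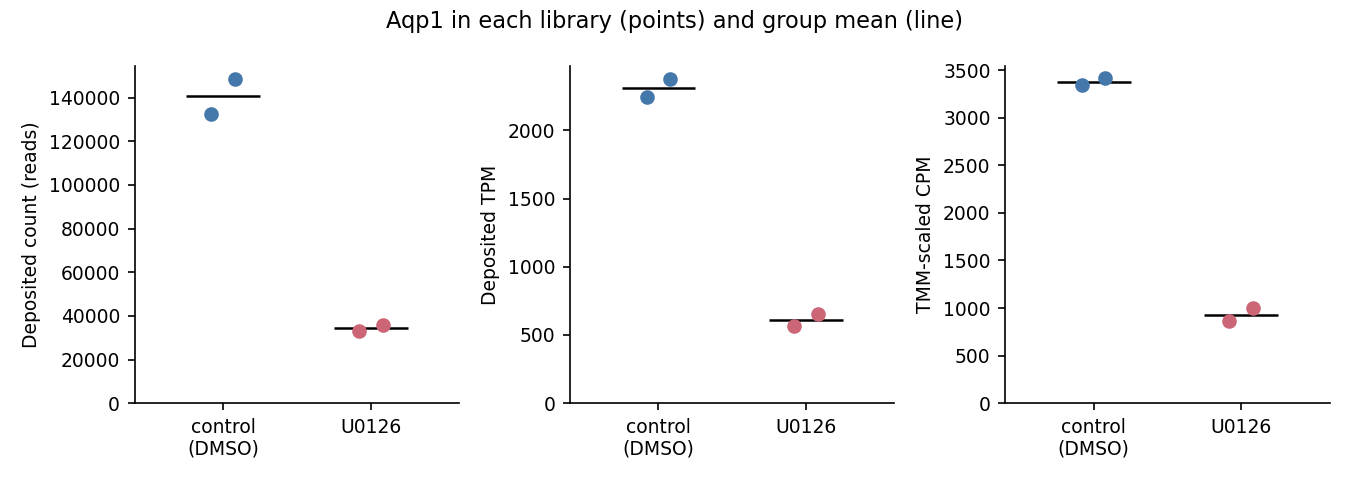
Aqp1 in the deposited count (left), the deposited TPM (middle) and TMM-scaled CPM (right), each axis starting at 0. Points are single libraries and lines are group means of 2; the U0126 points at 565 and 657 TPM sit below the controls at 2245 and 2379 TPM.

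As a share of all counts, Aqp1 took 0.341% of control replicate 1 (95% Wilson interval 0.339 to 0.343) and 0.347% of control replicate 2 (0.346 to 0.349). It took 0.0850% of U0126 replicate 1 (0.0840 to 0.0859) and 0.0977% of U0126 replicate 2 (0.0967 to 0.0987). The intervals cover counting error only, and within each group they did not overlap, so the replicates differed by more than the counting. In scaled CPM, replicate 2 was 2.09% above replicate 1 in the controls and 14.9% above it with U0126. The median difference between replicates over 150 tested genes with a mean TPM of at least 1000 was 6.58% in the controls and 6.73% with U0126. The difference for Aqp1 was thus wider than the median of this set between the U0126 libraries, and narrower between the controls. The set was chosen by the mean over all 4 libraries, while Aqp1 with U0126 was at 565 and 657 TPM. The length implied by its FPKM and count was 2694 to 2701 bases in the 4 libraries, so the length correction was nearly the same in each.

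By TPM, Aqp1 ranked 52nd and 49th of 32623 genes in the controls and 251st and 229th with U0126. A set of 651 genes was picked by symbol from some families of channels, pumps and solute carriers. It was put together after the table had been seen and leaves out other families, such as the V-ATPase pumps. Within this set, Aqp1 ranked 1st in each library. It held 17.5% and 17.7% of the summed TPM of that set in the controls and 5.63% and 6.01% with U0126. Next in mean TPM was Slc25a4, a carrier of the inner mitochondrial membrane that exchanges ADP and ATP, with 669 and 672 TPM in the controls and 522 and 558 with U0126. In the controls the gap between Aqp1 and Slc25a4 was far beyond the spread of either. With U0126 the Slc25a4 values came close to the lower Aqp1 library at 565 TPM. Slc25a4 itself did not pass the test (log2 fold change -0.25 ± 0.09 SE, edgeR adjusted p = 0.0902). It was called lower without U0126 replicate 2, but that fit has no spread between U0126 libraries and called more genes throughout.

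**Figure D2:**
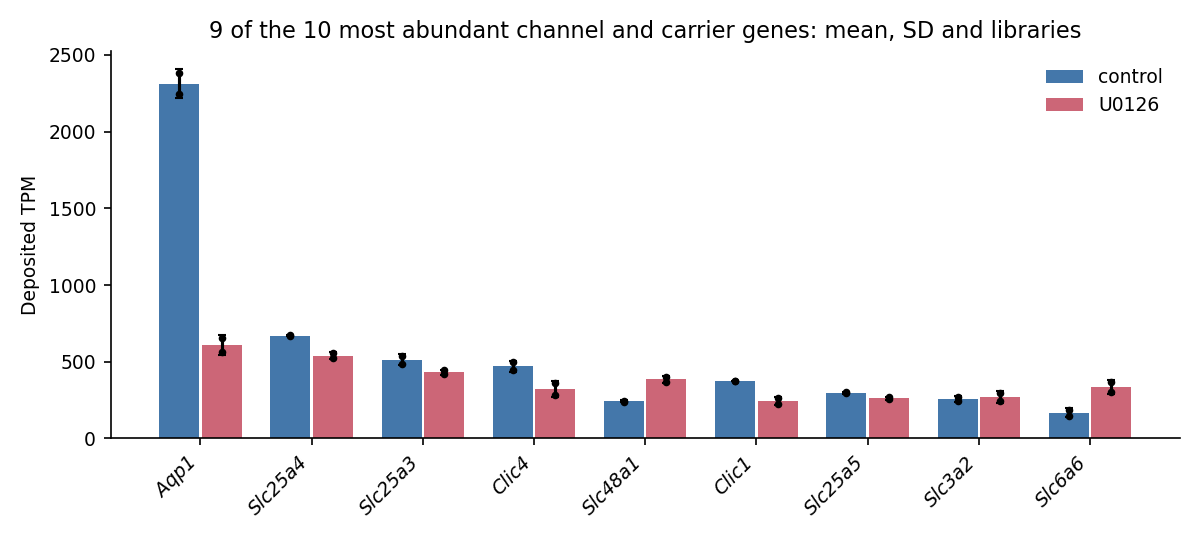
Deposited TPM of 9 of the 10 genes with the highest mean over the 4 libraries in the symbol-picked channel, pump and carrier set. Bars are group means, error bars the SD of 2 libraries and dots the libraries; the Aqp1 control bar, at 2312 TPM, stands above all others, and its U0126 bar, at 611 TPM, is near that of Slc25a4 at 540.2 TPM.

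Among the 150 tested genes with a mean TPM of at least 1000, a limit set after the table had been seen, Aqp1 had the lowest log2 fold change. The next lowest was S100a4, a calcium-binding protein (-1.32), and its relative S100a6 was at -1.12. Over all abundances, 419 of the 14023 genes tested had a lower log2 fold change than Aqp1. These orders describe the values that chose the gene and test nothing.

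**Figure D3:**
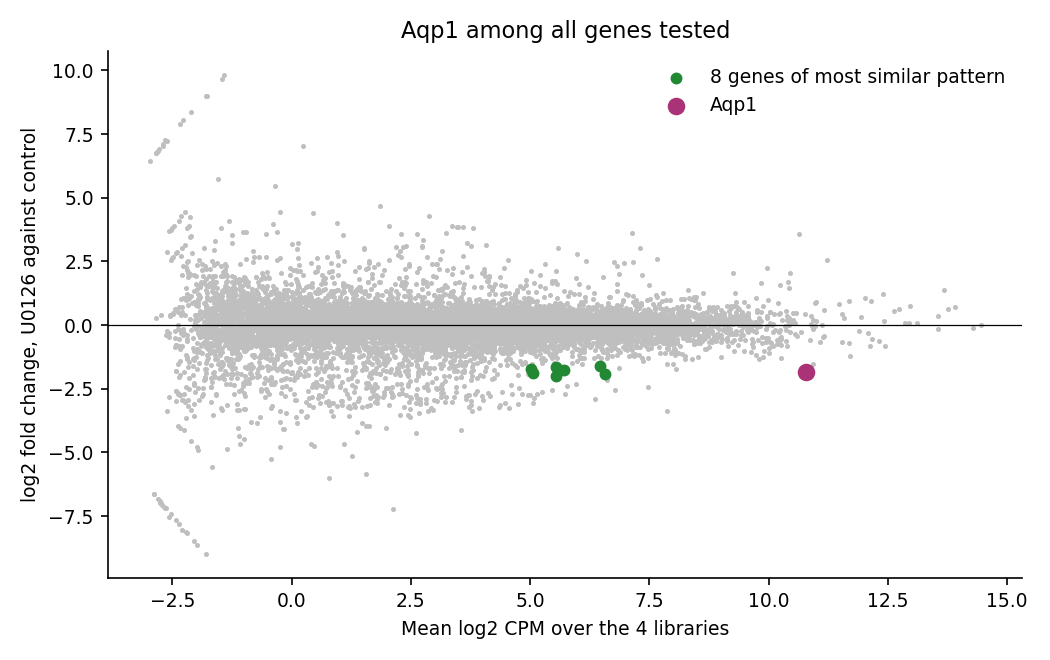
Log2 fold change of U0126 against control for each of 14023 genes tested, over the mean log2 CPM of the 4 libraries. Aqp1, at -1.86, lies to the right of the 8 genes of most similar pattern, which had fold changes from -1.61 to -1.98 at lower abundance.

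Aqp1 was the only aquaporin gene with more than trace counts apart from Aqp11. The other 11 aquaporin genes of the list were all in the table. Of these, 8 (Aqp2, Aqp3, Aqp4, Aqp5, Aqp6, Aqp8, Aqp9 and Aqp12a) had 0 counts in all 4 libraries, and 0 counts allow a level of up to 0.0701 to 0.0813 CPM in a library. Mip, the lens aquaporin, had 8 counts and Aqp7, a glycerol channel of fat, had 2, all of them in U0126 replicate 2. Aqp11, an aquaporin found on intracellular membranes, was read 44 and 50 times in the controls and 31 and 45 times with U0126. The Aqp11 libraries overlapped between the groups, at 1.13 ± 0.0277 CPM and 1.03 ± 0.301 CPM, and it did not pass the test (log2 fold change -0.13 ± 0.38 SE, edgeR adjusted p = 0.839). Per length, Aqp1 stood 1512-fold and 1482-fold above Aqp11 in the controls and 533-fold and 399-fold above it with U0126, in TPM.

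Around the gene, 5 others lay within 250 kb. Fam188b, whose protein is annotated as a deubiquitinase (also called Mindy4), ends 19263 bases before the start of Aqp1 on the same strand. It was read 384 and 406 times in the controls and 245 and 267 times with U0126, or 9.50 ± 0.251 and 6.92 ± 0.648 CPM. The U0126 libraries of Fam188b were both below the controls, but it did not pass the test (log2 fold change -0.46 ± 0.16 SE, edgeR adjusted p = 0.0843). Without U0126 replicate 2 it did, as lower, in a fit that has no spread between U0126 libraries and called more genes throughout. Ghrhr, the receptor of growth hormone-releasing hormone, lies 19234 bases after the end of Aqp1 and had 1 to 8 counts in a library. Adcyap1r1, a receptor of the neuropeptide PACAP, had at most 8. Crhr2, a receptor of the corticotropin-releasing hormone family, and Inmt, a methyltransferase, had 0 in all 4 libraries. At a control level of 3379 CPM, Aqp1 was thus the one highly expressed gene in this window.

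The genes whose pattern over the 4 libraries was most like that of Aqp1 were sought among 4553 other genes whose mean log2 CPM reached at least 5. Likeness was the Euclidean distance between log2 CPM values centred on each gene's mean, so abundance did not count. The median distance was 1.87. The nearest was Ddah1 at 0.0913, an enzyme that breaks down asymmetric dimethylarginine, an inhibitor of nitric oxide synthases. Ddah1 had 92.6 and 92.7 TPM in the controls and 21.4 and 25.2 with U0126. Anxa3, an annexin that binds membrane phospholipids, followed at 0.137, with 33.8 and 37.3 TPM in the controls and 10.6 and 10.7 with U0126. Serpinb9, an inhibitor of granzyme B, was at nearly the same distance, with 88.4 and 94.8 TPM and then 25.1 and 26.9. All 3 were less abundant than Aqp1 and, like it, had the lower of the U0126 values in replicate 1.

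The other 5 were Mrvi1 (distance 0.213), a substrate of cGMP-dependent kinase at the endoplasmic reticulum, Mmd (0.217), Col4a3 (0.221), a basement membrane collagen chain, Fgf10 (0.258), a fibroblast growth factor, and Cadm4 (0.276), a cell adhesion molecule. The gene after them stood at 0.287, so the list has no natural end. Fgf10 had 40.0 and 42.4 TPM in the controls and 9.47 and 14.0 with U0126. Cadm4 was the most abundant of the 8, with 181 and 207 TPM and then 58.2 and 63.6. These likenesses rest on 4 libraries of 2 groups and on the same contrast that chose Aqp1, so they are a description.

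**Figure D4:**
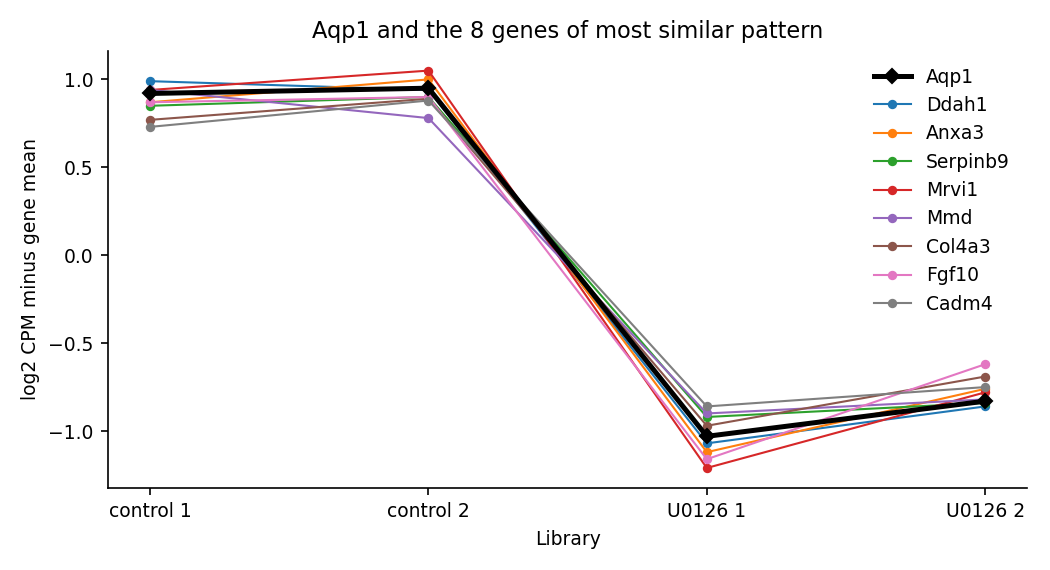
Log2 CPM of Aqp1 (black) and the 8 genes nearest to it, each centred on its own mean, in the 4 libraries. Aqp1 runs from 0.92 and 0.95 in the controls to -1.03 and -0.83 with U0126, and all 8 other lines share its lower point in U0126 replicate 1; lines join libraries for reading only, since replicates have no order.

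Among genes of the hypertonic response, the taurine transporter rose, and a kinase and a chaperone fell. Of 10 hypertonic response genes, 9 were in the table and 7 were tested; 1 rose, 2 fell and 4 did not pass (median log2 fold change -0.21, against 0.02 over all genes tested). Slc6a6, the taurine transporter, had 201 and 248 CPM in the controls and 517 and 424 CPM with U0126, a 2.09-fold rise (log2 fold change 1.07 ± 0.14 SE, edgeR adjusted p = 0.00278). Sgk1, a kinase that acts on ion transport, fell 2.11-fold from 21.0 ± 0.363 to 9.95 ± 0.652 CPM (edgeR adjusted p = 0.00185). Both U0126 libraries lay outside the control range for either gene. Hspa1b, the stress-inducible Hsp70, fell 1.57-fold, with a value that is uncertain because a near-identical copy could share its reads. Its call was lost without control replicate 2 (edgeR adjusted p = 0.0795). Nfat5, the transcription factor that responds to hypertonicity, was at 79.8 ± 4.71 and 91.1 ± 4.17 CPM and did not pass (edgeR adjusted p = 0.204).

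Genes for cell volume control include the Lrrc8 anion channel subunits, the Slc12 salt cotransporters and the Wnk kinases that act on those cotransporters. Of 22 in the table, 19 were tested; 3 fell and 16 did not pass (median log2 fold change -0.12), where 11.5% of all genes tested fell. No Lrrc8 or Slc12 gene was called with all 4 libraries in edgeR's test. Wnk4 had 31.0 and 33.7 CPM in the controls and 13.1 and 19.2 CPM with U0126 (2.0-fold lower, edgeR adjusted p = 0.00980). Wnk3 fell 2.34-fold at a lower level, from 3.61 ± 0.544 to 1.55 ± 0.311 CPM, and Ano6, a calcium-activated lipid scramblase and channel, 1.71-fold. These calls depended on single libraries. Those of Wnk4 and Wnk3 were lost without control replicate 1 (edgeR adjusted p = 0.0574 and 0.0919) or 2 (0.0872 and 0.216), and that of Ano6 without control replicate 2 (0.230) or U0126 replicate 1 (0.0514). The number of members called changed with the library left out, and so did the number over all genes tested.

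Carbonic anhydrases, which interconvert CO2 and bicarbonate, and the Slc4 bicarbonate transporters divided by member. Of 22 in the table, 12 were tested; 3 rose, 2 fell and 7 did not pass (median log2 fold change -0.15). Car9, a carbonic anhydrase with its active site outside the cell, went from 48.4 ± 5.08 CPM in the controls to 179.6 ± 28.9 CPM with U0126. Both U0126 libraries were above both controls. Car9 thus rose 3.71-fold (log2 fold change 1.89 ± 0.14 SE, edgeR adjusted p = 2.94e-04), and it was still called with any 1 library left out. Slc4a4, a sodium bicarbonate cotransporter, rose 3.18-fold from 3.82 ± 0.735 to 12.2 ± 4.69 CPM. Car11, a member of the family without enzyme activity, rose 2.07-fold. Car2, the cytosolic enzyme of red cells and kidney, and the red cell anion exchanger Slc4a1 had 0 counts in all 4 libraries. Slc4a7, a sodium bicarbonate cotransporter, fell 1.39-fold (edgeR adjusted p = 0.0407), and Slc4a2 was the other that fell, named after its values were seen. Without control replicate 1, only Car9 was called in the list; without control replicate 2, Car9 and Slc4a4 were. For Slc4a7 the call was lost as well when U0126 replicate 1 was left out (0.0568) and in the fit with a replicate block.

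For the sodium pump, which sets the ion gradients that other carriers use, 14 genes were in the table and 8 were tested; 1 rose, 2 fell and 5 did not pass (median log2 fold change -0.19). All 3 calls were for Fxyd genes, small proteins that modulate the pump. Fxyd5 had 116 and 89.2 CPM in the controls and 49.1 and 48.5 CPM with U0126 (2.10-fold lower, edgeR adjusted p = 0.00224). Fxyd6 fell 3.36-fold from 5.32 and 4.69 CPM to 1.34 and 1.63 CPM. Fxyd1, phospholemman, rose 1.82-fold from 21.2 ± 2.64 to 38.6 ± 3.38 CPM, a call lost without control replicate 2 (edgeR adjusted p = 0.0664). The fallen genes of the list numbered 4 with library totals alone and 3 under DESeq2. Their number also rose with either U0126 library left out, as did the number over all genes tested.

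**Figure D5:**
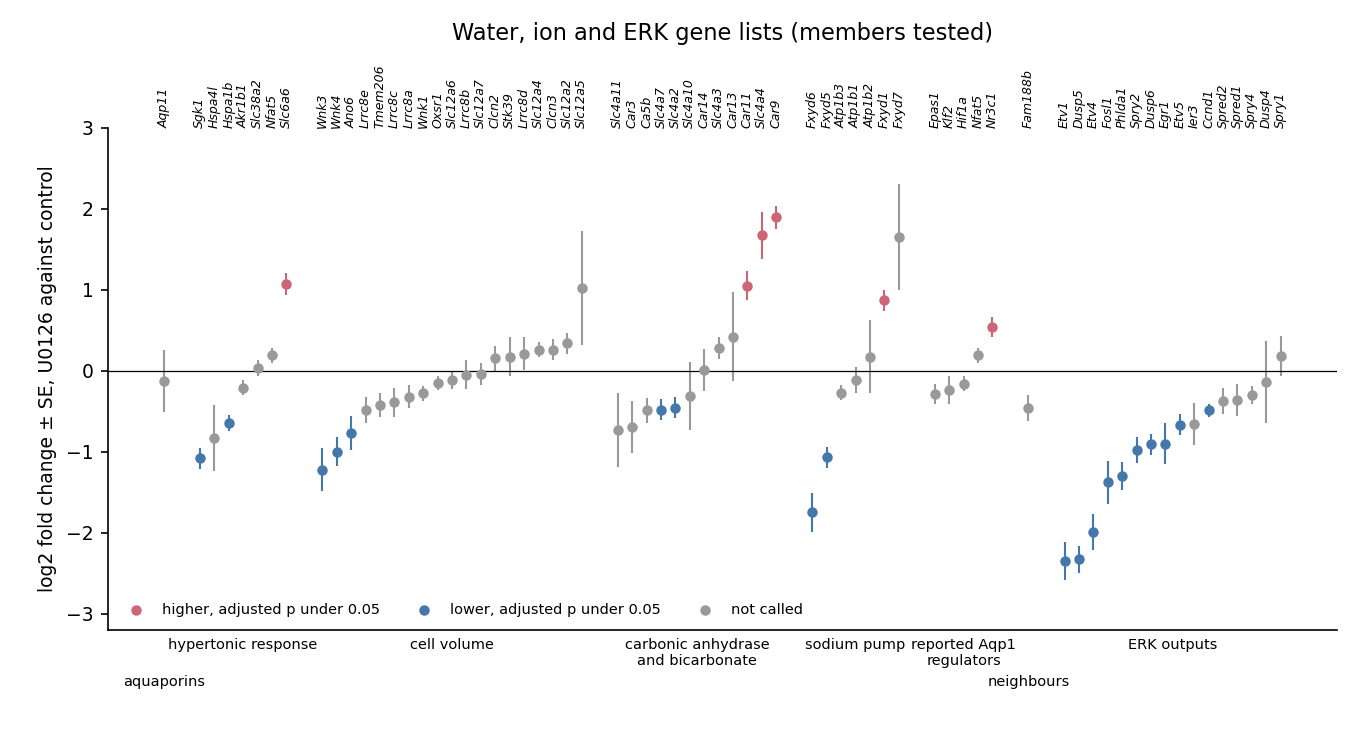
Log2 fold change (± SE) of U0126 against control for tested members of 8 gene lists, each point a gene named above it. Red points rose, blue points fell and grey points did not pass edgeR's test; Car9 at 1.89 and Slc4a4 at 1.67 are the highest of the red points, and Fam188b is the one tested neighbour of Aqp1.

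Transcription factors that have been reported to act on Aqp1 in other cell types or species were also measured. Of 6, 5 were tested; 1 rose and 4 did not pass. Nr3c1, the glucocorticoid receptor, rose 1.46-fold from 51.2 ± 5.39 to 74.6 ± 6.91 CPM (edgeR adjusted p = 0.0180). It is split over 2 rows of the table, and the other row had a log2 fold change of 0.49 against 0.54 here. The call was lost without control replicate 1 (edgeR adjusted p = 0.196) or 2 (0.0753). Hif1a and Epas1, the oxygen-regulated alpha subunits, had log2 fold changes of -0.16 ± 0.09 and -0.29 ± 0.12 SE and did not pass. Klf2, a flow-responsive factor of endothelium, was at 35.7 ± 1.41 and 30.4 ± 7.37 CPM, with overlapping groups. Without U0126 replicate 2, Epas1 and Klf2 passed, as lower, but that fit has no spread between U0126 libraries and called more genes throughout. Klf1, the erythroid member, had at most 19 counts in a library and was not tested.

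Most of the listed genes downstream of ERK were lower in the same libraries. Of 16 tested, 10 fell and 6 did not pass (median log2 fold change -0.79), where 11.5% of all genes tested fell. The 6 had log2 fold changes from -0.66 (Ier3) to 0.18 (Spry1, the only 1 of the list above 0). The ETS factor genes Etv1 and Etv4 went from 5.30 ± 0.178 to 1.04 ± 0.0993 CPM and from 18.4 ± 1.14 to 4.64 ± 1.41 CPM. Etv5, the more abundant ETS factor gene of the list, fell less, 1.59-fold from 63.8 ± 2.98 to 40.1 ± 6.81 CPM. Dusp5, a nuclear ERK phosphatase, fell 5.04-fold and Phlda1 2.46-fold. The number of fallen genes in the list varied with the library left out, as did the number over all genes tested. The calls of Egr1, Etv5 and Ccnd1 were lost without either control, and those of Spry2 and Fosl1 without control replicate 1. That of Egr1 was also lost under DESeq2 (DESeq2 adjusted p = 0.141). The log2 value of Aqp1, -1.86, lay between those of Etv4 (-1.99) and Fosl1 (-1.38), the latter named after its values were seen.

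Defining markers of endothelial and red blood cells, which are known for abundant Aqp1, were at or near 0 apart from Egfl7. Of 9 endothelial markers, 8 were in the table, and 4 of these (Cdh5, Tie1, Emcn and Cldn5) had 0 counts in all 4 libraries. The summed level of the list was 27.3 to 28.5 TPM in the controls and 23.5 to 24.9 TPM with U0126, nearly all of it Egfl7, which did not pass the test (log2 fold change -0.14 ± 0.12 SE, edgeR adjusted p = 0.449). Of 7 erythroid markers, 6 were in the table; Hbb, Slc4a1 and Rhag were at 0 in all 4 libraries, and the list summed to at most 0.537 TPM. The 5 epithelial markers summed to 2.75 to 3.99 TPM and the 4 myeloid markers to 0.437 to 1.66 TPM. Krt18, with 10 counts in each U0126 library and 0 in the controls, was called higher, and Adgre1 (23, 16, 2 and 0 counts) lower, both at under 1 CPM. Both calls were lost under DESeq2, with no filter, in the fit with a replicate block and without either control, and that of Adgre1 also without U0126 replicate 2. With a stricter filter neither gene was tested, nor was Krt18 without either U0126 library.

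Of the markers of 2 other cell types, Msln and 3 smooth muscle and pericyte genes fell with U0126. The 5 mesothelial markers summed to 17.7 and 22.2 TPM in the controls and 9.70 and 11.05 TPM with U0126. Most of that was Msln, which fell from 23.4 ± 4.25 to 11.9 ± 1.73 CPM (edgeR adjusted p = 0.00893), a call lost without control replicate 1. The other mesothelial marker tested, Lrrn4, was read 25 and 6 times in the controls and 17 and 46 times with U0126 and did not pass (log2 fold change 1.17 ± 0.79 SE, edgeR adjusted p = 0.349). Upk3b and Wt1 had at most 9 and 26 counts in a library, and Krt19 was at 0. Wt1, not tested with all 4 libraries, was called higher without U0126 replicate 2, in a fit with no spread between U0126 libraries. The 5 smooth muscle and pericyte markers summed to 239.6 and 292 TPM in the controls and 129.7 and 179 TPM with U0126. Of 4 tested, 3 fell and 1 did not pass, where 11.5% of all genes tested fell. The fallen genes were Mcam, an adhesion molecule, 2.43-fold lower (142 ± 8.72 to 58.6 ± 17.4 CPM), Des, desmin, 2.96-fold, and Myh11, smooth muscle myosin, 1.51-fold. The Des call was lost without control replicate 1 (edgeR adjusted p = 0.0935), and that of Myh11 without control replicate 1 (0.0589), control replicate 2 (0.288) or U0126 replicate 1 (0.0508). Of 7 tested tendon fibroblast markers, 4 rose and 3 did not pass, where 8.41% of all genes tested rose. Comp, Fmod, Scx and Dcn rose, with Comp, a cartilage and tendon matrix protein, at 1.57 ± 0.152 and 13.3 ± 4.41 CPM. Col1a1, Thbs4 and Mkx did not pass, at log2 fold changes of -0.01, 0.24 and 1.12. The Scx call was lost without control replicate 1 or 2, and that of Dcn without control replicate 2. The part of these cell types, and of the higher mitochondrial share, in the level of Aqp1 was not tested.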

How the data were processed

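Per the labels' protocols, RNA was taken with Trizol and sequenced as Illumina libraries. Which aligner, counter and strand setting were used is not given in the sources used here. The authors deposited, per gene and library, a raw count, a TPM and an FPKM value, as the file headers name them. The deposited TPM values served to compare levels between genes, and the deposited counts served for all tests.

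Counts were filtered with filterByExpr (minimum count 10, minimum total 15), scaled by TMM and tested with edgeR 4.0.16 in R 4.3.3 by the two-sided quasi-likelihood F test, adjusted by Benjamini-Hochberg over all genes tested. SE is the absolute log2 fold change over the square root of F. Alternatives used DESeq2 1.42.0, limma 3.58.1 (voom), other scalings and filters, a replicate block and leaving out each library. The procedure was tested on simulated data.

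The gene and the lists were chosen with earlier results of these data known. Named were Aqp1, the aquaporins with a count, up to 4 members of a list with the smallest adjusted p (or its most abundant member), tested neighbours and regulators, and the 8 nearest patterns; other names were chosen after their values were seen. A symbol with several rows was represented by its most abundant row. Slc5a3 and Pecam1 were not analysed here, and a few list members are left unreported.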

Additional observations from a re-analysis of the deposited data

How the results depend on the processing

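In the alternatives that kept all 4 libraries, the log2 ratio of Aqp1 moved by less than the SD of the 2 U0126 libraries (0.14 in log2 CPM). It moved by more than the control SD of 0.02 with library totals, TPM, FPKM or either U0126 library left out. The ratio was -1.86 with TMM and with the replicates paired, and -1.87 with RLE factors. It was -1.91 with library totals alone and -1.92 from the deposited TPM or FPKM. When a library was left out, the ratio lay between -1.96 and -1.76. Leaving out a library moves the mean of 2 by less than their SD whatever the values, so those runs are no check against that SD. With all 4 libraries kept, counts of called list members changed by over 1.5 times in 4 lists: 1 carbonic anhydrase or bicarbonate gene fell, in place of 2, with no filter and in the replicate block fit, 4 sodium pump genes fell, in place of 2, with library totals alone, and the 1 epithelial and 1 myeloid marker called went to 0 with the stricter filter (not tested there), with no filter, under DESeq2 and in the replicate block fit. The marker lists were counted under these settings after the data had been seen. Leaving out one library moved more. Over all genes, 295 to 2138 were then higher and 604 to 2506 lower, against 1180 and 1612. Among the list members, 1 to 2 hypertonic response genes fell; 0 to 1 cell volume genes rose and 0 to 8 fell; 1 to 4 carbonic anhydrase and bicarbonate genes rose and 0 to 3 fell; 0 to 1 sodium pump genes rose and 2 to 4 fell; 0 to 1 regulators rose and 0 to 2 fell; 5 to 13 ERK output genes fell; 0 to 1 neighbours fell; 2 to 6 tendon markers rose; 0 to 1 mesothelial markers rose and 0 to 1 fell; 0 epithelial markers rose; 0 to 1 myeloid markers fell; and 1 to 4 smooth muscle and pericyte markers fell. Of 535 values for 49 single genes, 491 stayed on their side of the threshold, 40 lost a call and 4 gained one, and no called value changed direction. With a library left out, its group has no spread, so the spread is estimated from the other group alone. How much of the change in calls comes from this was not tested. Libraries with the same replicate number did not deviate together (Pearson r = -0.031 across 14023 genes, which are not independent replicates), so the numbers are not read as pairs; with the replicate block 958 genes were higher and 1413 lower. Depth does not limit Aqp1, whose lowest count has a counting error of 0.552%, but list members too low for the count filter were not tested.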
